A study of Mus musculus with 4 samples.

Results

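Fibronectin, the tenascins, the thrombospondins, periostin, SPARC and CTHRC1 are secreted proteins of the extracellular matrix, the meshwork in which lung cells sit. They were followed here as 9 genes, Fn1, Tnc, Tnxb, Thbs1, Thbs2, Thbs3, Postn, Sparc and Cthrc1, chosen by symbol, and all 9 are among the 17691 genes of the deposited table. The samples were lungs from wild type C57BL/6 animals, 6 to 8 weeks old, that received either PBS, a salt buffer, or bleomycin, an antitumour agent that cuts DNA and in lung sets off injury followed by scarring. Both agents were given through the nose, for 10 days by the labels, and each group has 2 libraries, PBS replicates 1 and 2 and bleomycin replicates 1 and 2. The labels name no other allele or agent. Nor do they say whether each library is from its own animal, so the p-values reflect only how far these samples scatter, and that scatter could be technical. The series as a whole asks which genes, metabolic ones above all, differ in lung after bleomycin, and the comparison below takes the same contrast for the matrix genes.

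Most of these proteins are called matricellular, because they sit in the matrix and signal to cells rather than bear load. Fibronectin is the exception, a fibril-forming glycoprotein that cells assemble through integrins and that is laid down early in wounds. Tenascin C and thrombospondin 1 are known as proteins of injured tissue, tenascin X as a component of mature connective tissue that helps to organise collagen fibrils. Periostin, SPARC and CTHRC1 are collagen-associated products of fibroblasts, and in lung fibrosis CTHRC1 is used as a marker of activated fibroblasts.

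After bleomycin, 5 of the 9 genes rose, 1 fell and 3 did not pass. Tnc, Fn1, Thbs1, Thbs2 and Cthrc1 rose, Tnxb fell, and Thbs3, Postn and Sparc did not pass limma's test at an adjusted p under 0.05 (Benjamini-Hochberg over 12986 genes, on log2 of FPKM + 1). FPKM are fragments scaled to transcript length and to the library's total, so levels of different genes can be set side by side per length. Among all genes tested, 8.59% rose, 7.69% fell and 16.3% passed in either direction. The 9 genes, and the gene lists further on, were chosen with earlier results of these data known. Their counts beside these shares are therefore a description, not a test. The median log2 fold change was 1.10 over the 9 genes and -0.02 over all genes tested. The groups did not overlap for 8 of the 9 genes, as for 66.5% of all genes tested. Postn was the gene whose groups overlapped. The summed FPKM of the 9 genes was 1818 and 1788 in the PBS libraries and 2996 and 4049 in the bleomycin libraries. That is 0.373% and 0.363% of a library's FPKM summed over all genes with PBS, and 0.632% and 0.878% with bleomycin. Sparc alone made 73.1% to 80.0% of that sum in the 4 libraries.

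**Figure D1:**
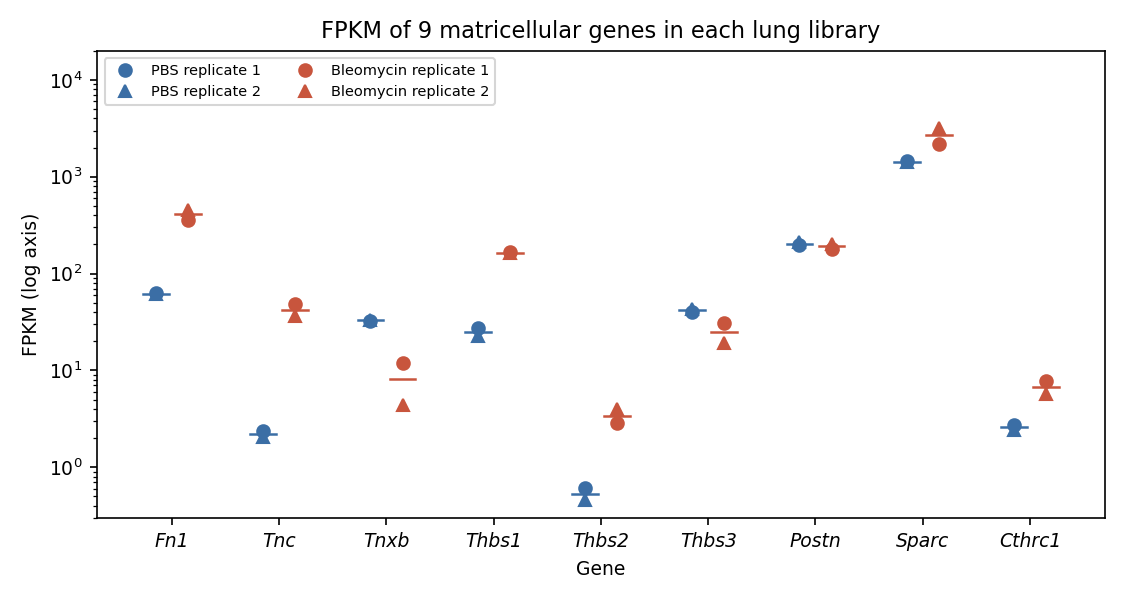
FPKM on a log axis of the 9 genes in each library, with circles for replicate 1, triangles for replicate 2 and a line at each group's mean (n = 2 per group). The bleomycin points lie above the PBS points for Fn1, Tnc, Thbs1, Thbs2, Sparc and Cthrc1, below them for Tnxb and Thbs3, and for Postn bleomycin replicate 1 lies below the PBS points and bleomycin replicate 2 between them.

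Several features of the libraries bear on every value below. Depth, estimated from the spacing of the lowest values, was 17000000 to 17800000 fragments per library. The spread per gene was wider in the bleomycin pair than in the PBS pair, with a median SD of 0.115 against 0.0637 on the log2 scale. Leaving out either PBS library left the spread to the bleomycin pair. Limma then called 0 genes, these 9 included, although 5 of the 9 rose and 1 fell at an unadjusted p under 0.05 in either case. Eif2s3y, a Y-linked gene, was at 26.4 and 28.9 FPKM in the PBS libraries and is listed at 0 in the bleomycin libraries. The Y-linked genes Ddx3y, Kdm5d and Uty went the same way, at 3.28 to 17.6 FPKM with PBS and at 0.02 FPKM or less with bleomycin. The labels used here give no sex. A difference in sex between the groups, or whatever else these values reflect, cannot be told apart from the treatment. As a check of the tissue label, Sftpc, the surfactant protein C gene of alveolar type II cells, was at 7913 to 12789 FPKM. In bulk tissue, fewer cells of a type and less RNA per cell cannot be told apart.

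Fn1, the fibronectin gene (gene 14268, GRCm38.p6 chromosome 1, 71585473 to 71653280), stood at 62.3 and 61.8 FPKM with PBS and at 360 and 457.9 FPKM with bleomycin. Both bleomycin libraries were far above the PBS pair, whose values nearly coincided. The means were 62.0 ± 0.396 and 409 ± 69.2 FPKM (mean ± SD of 2 libraries, here and in later values of this form), a ratio of 6.59. The log2 fold change was 2.69 ± 0.14 (SE, adjusted p = 0.00458 by limma), rank 20 from the highest among all genes tested. The table gives 1 value for 7 transcripts of Fn1, so the splice forms with and without the extra domains of cellular fibronectin cannot be read from it.

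The 2 tenascins moved in opposite directions. Tnc, the tenascin C gene (gene 21923, chromosome 4, 63959785 to 64047015), was at 2.39 and 2.03 FPKM with PBS and at 48.2 and 36.1 FPKM with bleomycin. Tenascin C was scarce in both PBS libraries and well above them in both bleomycin libraries. The mean was 19.1 times as high after bleomycin, and the log2 fold change of 3.74 ± 0.16 (adjusted p = 0.00416 by limma) ranked 4 from the highest. The PBS values rest on an estimated 288 and 246 fragments, and the bleomycin values on 5881 and 4561.

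Tnxb, the tenascin X gene (gene 81877, chromosome 17, 34660453 to 34719815), was at 32.5 and 33.0 FPKM with PBS and at 11.8 and 4.37 FPKM with bleomycin. Both bleomycin libraries lay below the PBS pair, but they differed from each other 2.70-fold, more than any other of the 9 genes. The PBS mean was 4.05 times the bleomycin mean, with a log2 fold change of -2.02 ± 0.41 (adjusted p = 0.0385 by limma), rank 61 from the lowest. The fold change was -2.65 without bleomycin replicate 1 and -1.40 without bleomycin replicate 2. With no filter on low values, Tnxb no longer passed (adjusted p = 0.0795 by limma).

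Summed over Tnc, Tnxb, Tnr and Tnn, the tenascin genes amounted to 37.5 and 36.9 FPKM with PBS and to 61.4 and 41.1 FPKM with bleomycin. Tnc made 6.37% and 5.50% of that sum with PBS and 78.5% and 87.7% with bleomycin, while Tnxb made 86.7% and 89.4% with PBS but 19.3% and 10.6% with bleomycin. The family thus passed from mostly tenascin X to mostly tenascin C transcript in both bleomycin libraries. Within a library, the log2 level of Tnc minus that of Tnxb was -3.31 and -3.49 with PBS but 1.94 and 2.79 with bleomycin. An exact two-sided permutation test of this difference gave p = 0.333, the smallest that 2 libraries against 2 can give. The same p was found for each of the 6 pairs of genes compared, and it stayed 0.333 after Benjamini-Hochberg adjustment. Tnn, tenascin N, was at 2.55 and 1.81 FPKM with PBS and at 1.32 and 0.67 FPKM with bleomycin and did not pass (adjusted p = 0.109 by limma). Tnr, the tenascin of the nervous system, stayed below the filter at 0.07 FPKM or less in every library.

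Sequence upstream of annotated start sites was looked up for the 9 genes in the RefSeq promoter table (build GRCm38.p6), which held 8 windows for 6 of them, Tnc, Tnxb, Thbs2, Thbs3, Postn and Sparc. Fn1, Thbs1 and Cthrc1 have no entry there. The 250 bases before each start were searched on both strands for the AP-1 motif TGANTCA, the TEAD motif GGAATG, the TATA motif TATAAA and the CArG box of serum response factor, within which a TATA motif can lie. The 4 windows below each hold a motif match, and for Postn, which has another listed start, the window with a match is shown. They show the gene with the largest rise, the gene that fell, the lowest of the 9 and the periostin gene that did not pass. Each reads 5′ to 3′ on the gene's strand, with motif matches in capitals.
Tnc, chr4:64047016-64047265, minus strand: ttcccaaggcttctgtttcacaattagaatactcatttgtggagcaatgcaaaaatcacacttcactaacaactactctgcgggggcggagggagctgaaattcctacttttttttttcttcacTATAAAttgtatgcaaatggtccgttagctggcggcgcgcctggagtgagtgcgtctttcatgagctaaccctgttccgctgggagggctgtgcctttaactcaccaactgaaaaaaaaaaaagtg
Tnxb, chr17:34670285-34670534, plus strand: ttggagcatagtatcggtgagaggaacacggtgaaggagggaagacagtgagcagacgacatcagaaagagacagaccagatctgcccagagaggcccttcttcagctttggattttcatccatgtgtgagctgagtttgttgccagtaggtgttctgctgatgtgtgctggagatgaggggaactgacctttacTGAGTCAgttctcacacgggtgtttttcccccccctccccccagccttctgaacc
Thbs2, chr17:14694263-14694512, minus strand: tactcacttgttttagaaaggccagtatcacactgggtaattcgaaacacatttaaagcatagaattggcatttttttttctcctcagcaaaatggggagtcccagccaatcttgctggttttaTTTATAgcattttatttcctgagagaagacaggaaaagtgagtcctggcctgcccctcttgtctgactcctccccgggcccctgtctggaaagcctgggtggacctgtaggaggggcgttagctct
Postn, chr3:54360857-54361106, plus strand: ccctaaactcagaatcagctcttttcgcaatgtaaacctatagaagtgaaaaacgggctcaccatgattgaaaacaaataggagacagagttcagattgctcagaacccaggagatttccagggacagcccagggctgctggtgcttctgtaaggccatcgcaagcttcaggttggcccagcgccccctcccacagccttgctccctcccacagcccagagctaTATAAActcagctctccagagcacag

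The capitals mark TATA motifs in the Tnc, Thbs2 and Postn windows and 1 AP-1 motif in the Tnxb window. The Tnc match starts 126 bases before the annotated start, the Postn match 26 bases before it, and the Thbs2 match, on the opposite strand, 126 bases before it. The AP-1 match of Tnxb, TGAGTCA, starts 55 bases upstream of a start at 34670535, which lies inside the gene span given above. Among 32851 promoter windows of the same length, 12.4% hold the TATA motif, 6.75% the AP-1 motif, 12.6% the TEAD motif and 1.47% a CArG box. Neither the TEAD motif nor a CArG box is in any of the 8 windows. A second listed start of Tnc, 79 bases downstream, takes in the same TATA match, and the windows of Thbs3, Sparc and the farther Postn start hold none of the motifs. These are matches of letters, not measured binding sites.

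Of the thrombospondins, Thbs1 and Thbs2 rose and Thbs3 did not pass. Thbs1 encodes thrombospondin 1 (gene 21825, chromosome 2, 118111876 to 118127133), a trimeric protein that binds CD36 and CD47 and can activate latent TGF-beta. It was at 27.4 and 22.9 FPKM with PBS and at 165 and 164 FPKM with bleomycin. The bleomycin libraries agreed within 1.01-fold, the closest bleomycin pair among the 9 genes. The mean was 6.54 times as high, with a log2 fold change of 2.67 ± 0.11 (adjusted p = 0.00358 by limma), rank 23 from the highest.

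Thbs2 encodes the close relative thrombospondin 2 (gene 21826, chromosome 17, 14665500 to 14694262), a matrix protein that limits vessel growth and binds MMP2. It was at 0.61 and 0.46 FPKM with PBS and at 2.83 and 3.99 FPKM with bleomycin. It was the lowest of the 9 genes in all 4 libraries, at an estimated 61 and 46 fragments with PBS and 287 and 419 with bleomycin. The ratio of the means was 6.37, close to that of Thbs1, while the log2 fold change was 1.51 ± 0.18 (adjusted p = 0.0133 by limma), since adding 1 FPKM before taking logs shrinks the change of low genes. Between these genes the log2 fold changes differed by 1.16 with 1 FPKM added and by 0.25 with 0.1 FPKM added. The size of that difference thus depended on the value added.

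Thbs3 encodes thrombospondin 3 (gene 21827, chromosome 3, 89215180 to 89226841), of the pentameric branch of the family. It was at 40.2 and 43.2 FPKM with PBS and at 31.0 and 19.0 FPKM with bleomycin. Both bleomycin libraries were below the PBS pair, yet the log2 fold change of -0.75 ± 0.23 did not pass (adjusted p = 0.0941 by limma). It passed without bleomycin replicate 1 (-1.09, adjusted p = 7.66e-05) and without bleomycin replicate 2 (-0.42, adjusted p = 0.00842), fits in which limma takes the lone bleomycin library to vary as the PBS pair does. The gene lies wholly within Mtx1, a mitochondrial import gene on the opposite strand in GENCODE M21, and whether the libraries kept the strand is not given in the sources used here. Mtx1 was at 12.9 and 14.4 FPKM with PBS and at 16.0 and 14.8 FPKM with bleomycin, and whether its fragments entered the Thbs3 values where exons overlap was not tested. Tnc, Fn1, Thbs1 and Tnxb overlap shorter or non-coding genes on the opposite strand, none of which has a row of its own in the table.

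The thrombospondin genes together, with Thbs4 and Comp, summed to 68.3 and 66.7 FPKM with PBS and to 205 and 188 FPKM with bleomycin. With PBS, Thbs3 was the larger part, at 58.9% and 64.7%, and Thbs1 made 40.1% and 34.3%. With bleomycin, Thbs1 made 80.6% and 86.9% and Thbs3 15.1% and 10.1%. Thbs1 thus replaced Thbs3 as the most abundant thrombospondin transcript in both bleomycin libraries. The log2 level of Thbs1 minus that of Thbs3 was -0.54 and -0.89 with PBS and 2.38 and 3.04 with bleomycin (exact permutation p = 0.333, the smallest possible). Thbs4 was at 0.05 and 0.09 FPKM with PBS and at 5.43 and 1.55 FPKM with bleomycin and did not pass (adjusted p = 0.0534 by limma). Comp stayed below the filter, at 0.41 FPKM or less.

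**Figure D2:**
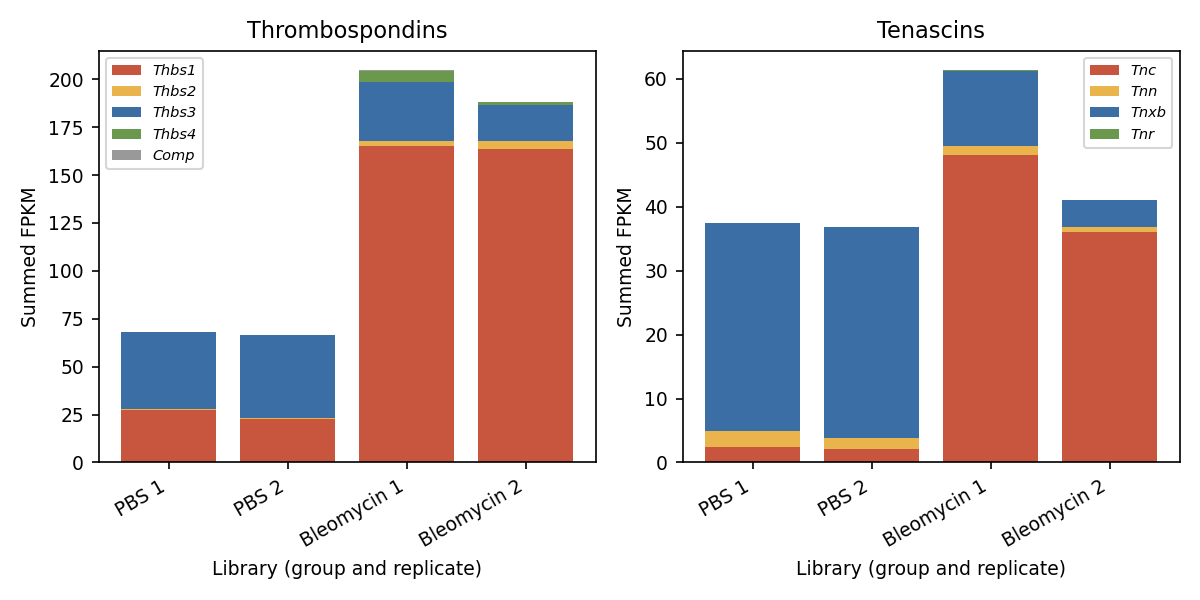
Summed FPKM of the thrombospondin genes (left) and tenascin genes (right) in each library, stacked by gene from 0. Thbs3 and Tnxb fill most of the PBS bars, and Thbs1 and Tnc fill most of the bleomycin bars, with Thbs1 at 80.6% and 86.9% and Tnc at 78.5% and 87.7%.

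The collagen-associated genes divided. Cthrc1 (gene 68588, chromosome 15, 39076932 to 39087121), which encodes a secreted protein of remodelling tissue, was at 2.76 and 2.43 FPKM with PBS and at 7.86 and 5.73 FPKM with bleomycin. Both bleomycin libraries were above both PBS libraries, and the PBS values rest on an estimated 55 and 48 fragments. The mean was 2.62 times as high, with a log2 fold change of 1.10 ± 0.17 (adjusted p = 0.0211 by limma).

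Sparc (gene 20692, chromosome 11, 55394159 to 55420080) encodes a calcium-binding glycoprotein that attaches to collagens and to basement membrane. It was the most abundant of the 9 in every library, at 1455 and 1411 FPKM with PBS and at 2189 and 3156 FPKM with bleomycin. The groups did not overlap, and the bleomycin libraries differed 1.44-fold. The log2 fold change of 0.88 ± 0.23 did not pass (adjusted p = 0.0668 by limma). Sparc passed after quantile normalization (0.96, adjusted p = 0.0129) and without bleomycin replicate 1 (1.14, adjusted p = 0.00966).

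Postn (gene 50706, chromosome 3, 54359267 to 54391041) encodes periostin, a fibroblast product that TGF-beta and interleukin 13 induce. It was at 195 and 212 FPKM with PBS and at 180 and 202 FPKM with bleomycin. The groups overlapped, with bleomycin replicate 2 between the PBS libraries. The log2 fold change was -0.09 ± 0.11 (adjusted p = 0.582 by limma), from -0.17 to -0.01 over the 14 alternative settings, none of which brought it past the threshold. Relative to Sparc in the same library, the log2 level of Postn was -2.89 and -2.73 with PBS and -3.60 and -3.96 with bleomycin. Relative to Postn, that of Cthrc1 was -5.71 and -5.95 with PBS and -4.35 and -4.92 with bleomycin. For Fn1 relative to Sparc the values were -4.52 and -4.49 with PBS and -2.60 and -2.78 with bleomycin. None of these ratios overlapped between the groups, but neither did 66.5% of single genes tested, and the share over pairs of genes was not computed. For each ratio the exact permutation p was 0.333, the smallest possible.

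**Figure D3:**
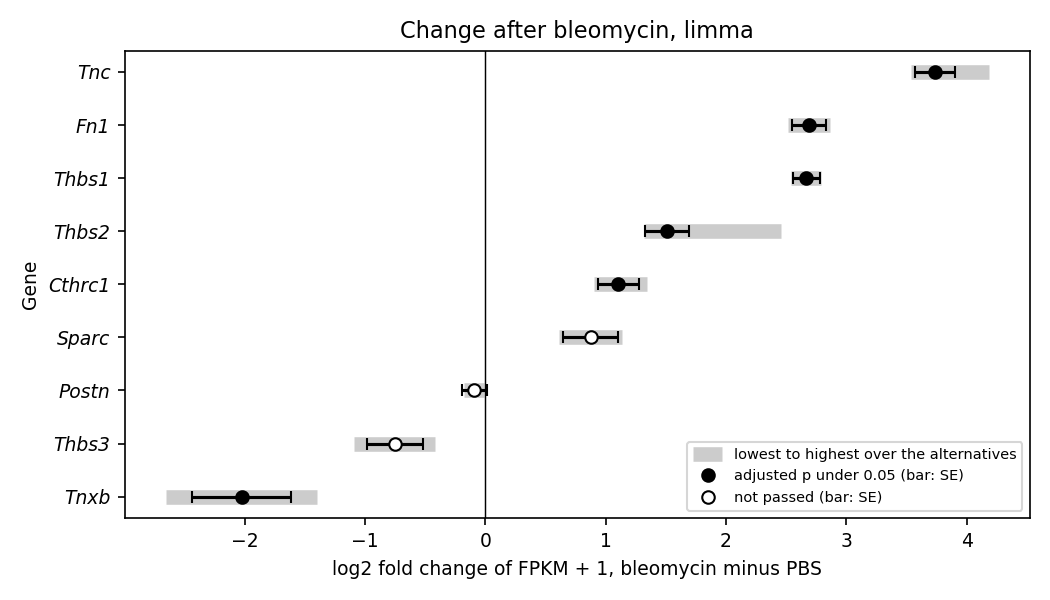
Log2 fold change of FPKM + 1, bleomycin minus PBS, with its SE (n = 2 per group), filled where limma's adjusted p was under 0.05, over a grey bar from the lowest to the highest value in the alternative settings. Tnc (3.74), Fn1 (2.69) and Thbs1 (2.67) lie farthest to the right and Tnxb (-2.02) farthest to the left, and the bar of Postn runs from -0.17 to -0.01.

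In mean level, the order with PBS was Sparc, Postn, Fn1, Thbs3, Tnxb, Thbs1, Cthrc1, Tnc and Thbs2, and with bleomycin it was Sparc, Fn1, Postn, Thbs1, Tnc, Thbs3, Tnxb, Cthrc1 and Thbs2. Fn1 passed Postn, and Tnc moved from next to last place to just above Thbs3. No neighbours in that order overlapped with PBS, where Cthrc1 at 2.43 to 2.76 FPKM and Tnc at 2.03 to 2.39 FPKM lay closest. With bleomycin the ranges of Tnxb (4.37 to 11.8 FPKM) and Cthrc1 (5.73 to 7.86 FPKM) overlapped, and those of Postn and Thbs1 lay close, at 180 to 202 FPKM and 164 to 165 FPKM.

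On the list of related matricellular genes, more rose than fell, but the list was chosen with earlier results of these data known. Of 29 such genes, 7 lay below the filter of a mean of 1 FPKM, and of the other 22, 8 rose, 1 fell and 13 did not pass, with a median log2 fold change of 0.71. The shares over all genes tested were 8.59% for rises and 7.69% for falls. Spp1, the osteopontin gene, rose from 53.8 ± 5.38 FPKM with PBS to 649 ± 291 FPKM with bleomycin. The CCN genes Cyr61, Ctgf and Wisp1, which encode secreted integrin ligands, rose by 2.29 ± 0.12, 1.71 ± 0.35 and 1.77 ± 0.15 on the log2 scale (adjusted p = 0.00486, 0.0396 and 0.00765 by limma). Cilp, a matrix protein gene of cartilage and fibroblasts, rose from 1.42 and 1.25 FPKM with PBS to 6.37 and 14.6 FPKM with bleomycin. The gene that fell was Vtn, for the plasma and matrix protein vitronectin, at 17.2 and 19.5 FPKM with PBS and at 4.98 and 4.06 FPKM with bleomycin. Liver is the main source of vitronectin, and all 6 hepatocyte markers fell in the same libraries, their summed level being 72.6 to 75.9 FPKM with PBS and 5.78 to 6.36 FPKM with bleomycin. Alb, the albumin gene, was at 14.2 to 14.4 FPKM with PBS and at 0.66 to 1.01 FPKM with bleomycin, and no hepatocyte marker was at 0. Their part in the change of Vtn was not tested. Without either PBS library limma passed 0 of the 22 genes, although 8 and 9 were higher and 1 was lower at an unadjusted p under 0.05. The median log2 fold change of these genes was 1.03 without bleomycin replicate 1 and 0.43 without bleomycin replicate 2. Over all genes tested it was -0.05 and 0.01 in those fits. Igfbp7, Sparcl1 and Spock2, the most abundant genes that did not pass, had log2 fold changes of 0.70 ± 0.24, 0.35 ± 0.12 and 0.71 ± 0.30.

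Of 18 tested genes for receptors of these proteins, 5 rose, 2 fell and 11 did not pass, with a median log2 fold change of 0.20. Over all genes tested, 8.59% rose and 7.69% fell, and 2 falls among 18 genes are near that share. Itga5, which encodes the fibronectin receptor subunit alpha 5, rose from 19.2 ± 0.163 to 40.1 ± 0.686 FPKM. Itgb6, the epithelial partner of alpha v in binding fibronectin and latent TGF-beta, was at 5.42 and 4.08 FPKM with PBS and at 22.3 and 31.1 FPKM with bleomycin. Itgav and Sdc4, a heparan sulfate co-receptor of fibronectin, rose by 0.83 ± 0.11 and 0.90 ± 0.14 on the log2 scale (adjusted p = 0.0155 and 0.0229 by limma). Itga8, an integrin subunit of resident lung fibroblasts and pericytes, fell from 51.6 ± 0.00707 to 17.0 ± 5.03 FPKM, and Itga2b, the platelet integrin subunit, from 14.0 ± 5.41 to 4.36 ± 0.643 FPKM. Leaving out either PBS library took limma to 0 receptor genes, while 5 were higher and 2 were lower at an unadjusted p under 0.05. Leaving out bleomycin replicate 1 gave the receptor genes a median log2 fold change of 0.28, and leaving out bleomycin replicate 2 gave 0.11. Among genes that did not pass, Itgb1, the common partner of alpha 5 and alpha 8, was at 239 and 246 FPKM with PBS and at 261 and 291 FPKM with bleomycin. Cd36 had a log2 fold change of -0.35 ± 0.09 (adjusted p = 0.0624 by limma) and Itgb5 one of 0.22 ± 0.10.

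Of 15 tested genes of proteases, their inhibitors and crosslinkers, 5 rose, 1 fell and 9 did not pass, with a median log2 fold change of 0.79. Among all genes tested 8.59% rose and 7.69% fell, and 1 fall among 15 genes is near that share. Mmp14, a membrane metalloproteinase, rose from 21.4 ± 1.91 to 105 ± 23.1 FPKM and Mmp2, which it activates, from 61.3 ± 6.52 to 164 ± 13.1 FPKM. Bmp1, which cleaves procollagens, and Adamts1, which cleaves proteoglycans and thrombospondins, rose by 1.03 ± 0.12 and 1.13 ± 0.08 on the log2 scale (adjusted p = 0.0132 and 0.00621 by limma). Mmp9 fell by 0.79 on the log2 scale (adjusted p = 0.049 by limma). That call was lost with a pseudocount of 0.1 or 0.5, without a filter or with one at 5 FPKM, and under each of the 3 other scalings. In fits without PBS replicate 1 or PBS replicate 2 limma passed 0 of the 15 genes, while an unadjusted p under 0.05 was met by 5 and 7 higher genes and by 1 and 0 lower ones. The list's median log2 fold change was 0.41 without bleomycin replicate 1 and 0.75 without bleomycin replicate 2. Tgm2, the transglutaminase that crosslinks fibronectin, was at 230 and 265 FPKM with PBS and at 283 and 275 FPKM with bleomycin and did not pass (adjusted p = 0.318 by limma). Pcolce and Plaur did not pass either, with log2 fold changes of -0.18 ± 0.08 and 0.36 ± 0.09.

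Of 21 tested regulators of matrix gene transcription and TGF-beta signalling, 4 rose, 0 fell and 17 did not pass, with a median log2 fold change of 0.46. At an unadjusted p under 0.05 by limma, 12 regulators were higher and 1 was lower. Of all 12986 genes tested, 2231 were higher and 2349 lower at that level, and by adjusted p 8.59% rose and 7.69% fell. Tgfb2, a TGF-beta ligand gene, rose from 8.48 ± 1.05 to 15.7 ± 0.0354 FPKM and Tgfb1 from 43.0 ± 3.08 to 59.8 ± 1.27 FPKM. The receptor gene Tgfbr2 and the signal transducer gene Smad3 rose by 0.52 ± 0.08 and 0.46 ± 0.10 on the log2 scale (adjusted p = 0.0192 and 0.0421 by limma). Limma passed 0 regulators without either PBS library, with 7 higher without PBS replicate 1 and 3 higher without PBS replicate 2 at an unadjusted p under 0.05. Their median log2 fold change was 0.34 without bleomycin replicate 1 and 0.35 without bleomycin replicate 2. The mechanosensing coactivator genes Yap1 and Wwtr1 had log2 fold changes of -0.19 ± 0.08 and 0.22 ± 0.08, and Tgfb3 one of 0.93 ± 0.23 (adjusted p = 0.057 by limma), and none of these passed.

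**Figure D4:**
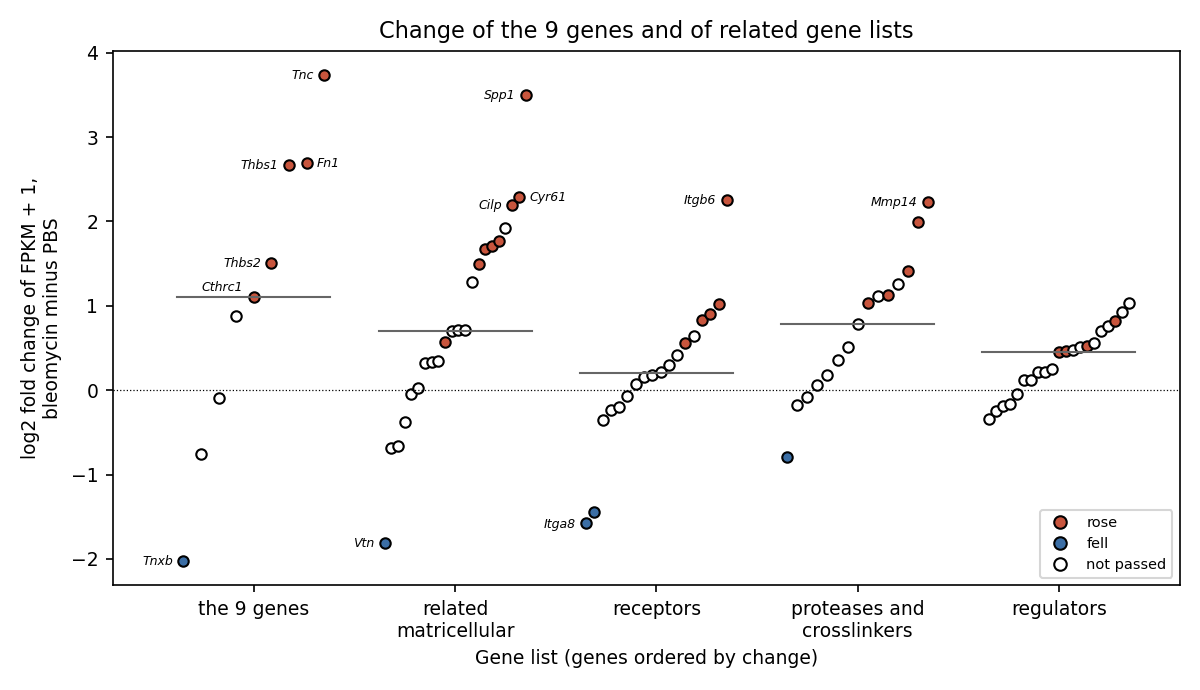
Log2 fold change of FPKM + 1, bleomycin minus PBS, for each tested gene of 5 lists, ordered by change within a list, with the list's median as a line and genes coloured by limma's call. Medians are 1.10 for the 9 genes, 0.71 for related matricellular genes, 0.20 for receptors, 0.79 for proteases and crosslinkers and 0.46 for regulators.

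Cell type markers changed in different ways from list to list. For comparison, 8.59% of all genes tested rose, 7.69% fell and 16.3% passed in either direction. Of 7 macrophage markers 5 rose, with a summed level of 117 to 122 FPKM with PBS and 213 to 308 FPKM with bleomycin. Of 6 markers of myofibroblasts and smooth muscle 2 rose, Acta2 and Actg2, with sums of 246 to 266 and 385 to 583 FPKM. Of 6 resident fibroblast markers 4 fell, from 2914 to 3502 FPKM with PBS down to 492 to 647 FPKM with bleomycin, mostly through Inmt. Pdgfra, a general marker of lung fibroblasts, was at 48.6 and 50.2 FPKM with PBS and at 50.9 and 46.3 FPKM with bleomycin. Of 6 adventitial fibroblast markers Cd34 rose and Dcn fell, and the sums overlapped at 997 to 1203 and 1103 to 1228 FPKM. Dpt of this list was at 152 FPKM in bleomycin replicate 1 and at 54.4 FPKM in bleomycin replicate 2, the library with the lower Tnxb. The rest of the list did not share that split. In the same order, Dcn was at 75.8 and 80.1 FPKM and Cd34 at 189 and 211 FPKM, both higher in bleomycin replicate 2. Pi16 was at 13.7 and 13.3 FPKM, Ly6a at 786 and 735 FPKM and Col14a1 at 12.1 and 9.23 FPKM.

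Platelets store thrombospondin 1, fibronectin and SPARC. Of 7 platelet and megakaryocyte markers 4 fell, with sums of 96.8 to 182 FPKM with PBS and 33.8 to 43.8 FPKM with bleomycin. Thbs1 and Fn1 rose in these libraries, and Sparc was higher but did not pass. The part of platelets in those levels was not tested. Of 5 endothelial markers 2 fell, with sums of 1021 to 1050 and 725 to 787 FPKM. Of 5 alveolar epithelial markers 1 fell, with sums of 14676 to 17551 and 13074 to 14666 FPKM. A single call among 5 markers is near the 16.3% of all genes tested that passed in either direction. Of 5 mesothelial markers 0 passed limma (1 was higher and 1 was lower at an unadjusted p under 0.05), with sums of 234 to 298 and 265 to 539 FPKM, the highest in bleomycin replicate 2 through Msln at 257 FPKM. The Schwann cell markers held 0 that passed limma and 1 that was lower at an unadjusted p under 0.05, and summed to at most 4.76 FPKM. No marker on these lists was at 0 in any library. The part of these cell types in the values of the 9 genes was not tested.

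The genes most like each of the 6 called genes were sought by the root mean square difference, over the 4 libraries, of log2 levels relative to the PBS mean. Nearest to Fn1 were Mest (0.109) and Rgs16 (0.136), and to Thbs1 Psrc1 (0.101) and Fn1 itself (0.152). Tnc had no neighbour as close, with Cldn4 at 0.247 and Spp1 at 0.285. For Thbs2 they were the collagen gene Col5a3 (0.0321) and Fmod, the fibromodulin gene (0.0411). For Cthrc1 they were Rad51ap1 (0.0387) and Cotl1 (0.0471). Nearest to Tnxb were Tppp3 (0.0334) and the complement gene C7 (0.0471), which shared its split between the bleomycin libraries. Tppp3 was at 407 and 395 FPKM with PBS and at 152 and 60.9 FPKM with bleomycin, and C7 at 154 and 147 FPKM with PBS and at 58.5 and 22.3 FPKM with bleomycin. These levels have 1 FPKM added before logs, so genes of low level can lie near while their FPKM ratios differ. Rgs16, near Fn1, was at 0.43 and 0.57 FPKM with PBS and at 6.6 and 11.36 FPKM with bleomycin. With 4 libraries in 2 groups, such likeness is a description only.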

How the data were processed

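Values are FPKM, made by the authors and deposited as 1 table whose 4 columns match the sample titles, per the file headers. The submitters' processing notes name Bowtie2, HISAT, mm10 and GRCm38. Which tool did what, and the quantifier, is not given in the sources used here. Since FPKM is relative to each library's total of fragments, a gene that takes up many fragments depresses the rest. Scgb1a1 held 8.35% to 11.2% of the summed FPKM with PBS against 3.98% to 4.28% with bleomycin. Its share of fragments was not computed.

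A nameless row (up to 0.0009% of a sum) was dropped, and 27 names that had become dates were restored by RefSeq accession. Genes averaging 1 FPKM or more entered limma 3.58.1 (R 4.3.3; eBayes with trend, two-sided) as log2(FPKM + 1), after the function was tested on simulated data. Depth came from genes with 1 transcript of 300 to 1000 bases at 0.03 to 0.3 FPKM, of which 75.0% to 78.1% fell within 0.15 of a whole fragment. Lengths and overlaps come from GENCODE M21 and gene positions from RefSeq GRCm38.p6. The 9 genes and all lists were chosen with earlier results of these data known, and the family sums, Thbs4, Tnn, Comp, Tnr, Mtx1 and Eif2s3y after seeing values. From each of 4 lists, up to 6 called genes with the largest change and up to 3 others with the highest mean were named, and Calr, Fstl1, Tgfbi and Matn4 are only counted. One gene that the rule names is not reported here. Per the labels the study had more groups and replicates than the 2 of 2 analysed here. Alternatives were other pseudocounts, filters, scalings and variance models, a block for the replicate number and fits lacking 1 library. Protein motifs were not searched. Python 3.11.15, pandas 2.3.3 and scipy 1.17.1 were used.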

Additional observations from a re-analysis of the deposited data

How the results depend on the processing

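Over 14 alternatives each, or 13 for Thbs2 and Cthrc1, which a filter at 5 FPKM removed, none of the 9 genes changed direction. For the 8 genes whose groups did not overlap, leaving out 1 library could not reverse it. The filters, variance models and replicate block leave each fold change as it is by construction. Tnc, Fn1, Thbs1, Thbs2 and Cthrc1 passed limma in each alternative that tested them except those without a PBS library. The cause of the changes listed here was not tested, except where fewer genes or libraries entered the fit.

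Without a filter, Tnxb had the same log2 fold change of -2.02 but did not pass (adjusted p = 0.0795), so 0 of the 9 genes fell, and 5 related genes rose and 1 receptor gene fell. With a filter at 5 FPKM 7 of the 9 genes were tested and 3 rose. After quantile normalization Sparc passed at 0.96. Among proteases and crosslinkers 0 fell, in place of Mmp9, with a pseudocount of 0.1 or 0.5, without a filter, with a filter at 5 FPKM, and under quantile, upper quartile or TPM scaling. The change of Thbs1 minus that of Thbs2 was 0.25 and 0.79 with pseudocounts of 0.1 and 0.5, and that of Tnc minus Tnxb was 6.35 with 0.1.

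Fits lacking 1 library gave from 0 to 2402 rises and from 0 to 3144 falls over all genes, from 0 to 6 and from 0 to 2 over the 9 genes, from 0 to 16 and from 0 to 4 over related genes, from 0 to 10 and from 0 to 5 over receptors, from 0 to 10 and from 0 to 1 over proteases and crosslinkers, and from 0 to 11 and from 0 to 1 over regulators. The lowest values are those lacking a PBS library, where limma gave 1120 and 1143 higher and 1007 and 1059 lower genes at an unadjusted p under 0.05. Log2 fold changes ran from 2.52 to 2.86 for Fn1, 3.53 to 3.94 for Tnc, -2.65 to -1.40 for Tnxb, 2.54 to 2.79 for Thbs1, 1.32 to 1.70 for Thbs2, -1.09 to -0.42 for Thbs3, 0.61 to 1.14 for Sparc and 0.91 to 1.30 for Cthrc1.

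The labels give both groups replicates 1 and 2. Deviations of same-numbered libraries correlated at 0.0231 across 12986 genes, and no label says that a number marks a shared animal, batch or day, so the libraries were not treated as paired. With a replicate block limma called 842 rises and 799 falls over all genes and 5 rises and 1 fall among the 9. Fragments were estimated for Tnc, Tnxb, Thbs2, Thbs3 and Cthrc1 only. Of these, Thbs2 and Cthrc1 rest on the fewest with PBS, so among them counting error limits those levels most.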
